A study of Mus musculus with 20 samples.

Results

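The mitochondrial ribosomal protein genes of the mouse heart were followed in iron-deficiency anemia, subunit by subunit. Members were all genes named *Mrpl* or *Mrps* with a number and, for the copies of the same protein, a letter a, b or c. This gave 76 of the 23420 genes in the count data, with 47 *Mrpl* genes for the large (39S) subunit and 29 *Mrps* genes for the small (28S) subunit. RNA came from whole hearts of male wild type C57BL/6 mice (C57BL/6J in the methods of the study) aged 9 weeks, 10 on a control diet and 10 on an iron-deficient diet (IDA), each fed for 6 weeks from 3 weeks of age. The iron-deficient diet is labelled as holding below 2 ppm iron in 1 field and above 2 ppm in another, and the control diet was adjusted for iron. Each library is 1 mouse. The hearts were read in bulk, so fewer cells of a type and less RNA per cell cannot be told apart.

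The mitochondrial ribosome sits in the matrix and translates the few messenger RNAs of the mitochondrial genome, all of which encode core subunits of the respiratory chain and of ATP synthase. Its ribosomal RNAs are made in the organelle, while all of its proteins are encoded in the nucleus and imported. The small subunit binds the messenger RNA and decodes it. The large subunit joins the amino acids and passes the new chain through an exit tunnel to the inner membrane. The heart, which is densely packed with mitochondria, depends on this machinery, and inherited defects in several of its proteins cause cardiomyopathy.

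Total counts per mouse lay between 6797180 and 8960688 read pairs in control and between 6682177 and 7833916 in IDA mice. Counts were scaled to the normalized size of each library (CPM). The filter asked for 1 CPM or more in 10 or more mice, which left 13590 genes for testing. All 76 members passed this filter. Cardiomyocyte markers (*Myh6*, *Tnnt2*, *Actc1*, *Myl2*, *Myl3*, *Tnni3*, *Ryr2*, *Pln*) summed to between 4417 and 5306 CPM in control and between 3882 and 5447 CPM in IDA hearts, and 3 of the 8 were higher and 1 was lower in IDA mice. Of the 15 erythroid markers listed, 5 passed the filter, and their sum lay between 171 and 254.8 CPM in control and between 248 and 835 CPM in IDA hearts, with 4 higher and 1 lower. The globin genes among them were not tested. Of 9 tested leukocyte markers, 7 were higher and 1 was lower, with sums of 387 to 473 CPM in control and 401 to 588 CPM in IDA mice. Fibroblast sums (1478 to 1831 CPM against 1440 to 1736 CPM) and endothelial sums (1606 to 1766 CPM against 1505 to 1970 CPM) overlapped over most of their range, and no adipocyte marker of 3 tested was called. The part of these shifts in the results on the members was not tested. With the mean log2 CPM of the erythroid markers as a covariate, 67 members and 27.3% of all tested genes were called higher. That mean ran from 3.42 to 4.29 in control and from 4.54 to 6.96 in IDA mice. As the groups did not overlap in it, this fit cannot tell the erythroid shift and the diet apart.

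The start sites of 4 members are shown, since members moved together and their promoters could hold shared sequences. Promoters are from RefSeq on GRCm38.p6 and run from 250 bases before to 50 bases after the start, 5′ to 3′ on the strand of the gene. Of the 76 members, 67 matched a promoter in that collection, with 73 promoters in all. Capitals mark exact matches, on either strand, to the core of the NRF1 site (GCATGCGC), the ETS site (CCGGAAG), the YY1 site (AAGATGGC) or the E-box (CACGTG). NRF1 is an activator of nuclear genes for mitochondrial proteins, and GABPA of the ETS family and YY1 are known for the same. *Mrpl32*, chr13:14612988-14613287 on the minus strand, held 4 NRF1 matches, some of them overlapping on opposite strands, and 1 YY1 match. *Mrps18b*, chr17:35916391-35916690 on the minus strand, held 2 NRF1 matches and 1 ETS match. *Mrps26*, chr2:130563507-130563806 on the plus strand, had the largest fold change of all members and held 1 ETS match. *Mrps2*, chr2:28467816-28468115 on the plus strand, was the only member with a negative fold change, and held none of the 4 motifs. Any of the 4 was present in 40 of the 73 member promoters (54.8%) and in 30.1% of those of tested genes. A promoter without them was thus common among members that rose. A link between motifs and fold changes was not tested.
Mrpl32: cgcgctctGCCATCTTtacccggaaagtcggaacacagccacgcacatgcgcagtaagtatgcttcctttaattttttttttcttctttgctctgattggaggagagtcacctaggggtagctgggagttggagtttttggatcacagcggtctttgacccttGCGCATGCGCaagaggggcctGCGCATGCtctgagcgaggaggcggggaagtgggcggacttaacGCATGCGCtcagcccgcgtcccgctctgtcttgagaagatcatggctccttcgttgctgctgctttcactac
Mrps18b: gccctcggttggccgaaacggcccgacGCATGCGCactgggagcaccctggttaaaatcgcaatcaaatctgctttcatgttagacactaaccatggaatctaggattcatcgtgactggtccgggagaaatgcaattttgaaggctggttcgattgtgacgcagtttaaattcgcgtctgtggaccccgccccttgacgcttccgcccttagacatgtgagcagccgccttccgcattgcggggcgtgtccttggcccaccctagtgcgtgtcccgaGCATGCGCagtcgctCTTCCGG
Mrps26: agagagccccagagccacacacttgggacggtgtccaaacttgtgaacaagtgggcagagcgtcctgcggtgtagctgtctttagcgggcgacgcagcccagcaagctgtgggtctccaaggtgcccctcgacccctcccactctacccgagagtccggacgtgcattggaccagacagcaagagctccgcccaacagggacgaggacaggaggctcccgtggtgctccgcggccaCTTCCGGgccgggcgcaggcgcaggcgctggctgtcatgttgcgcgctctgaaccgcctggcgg
Mrps2: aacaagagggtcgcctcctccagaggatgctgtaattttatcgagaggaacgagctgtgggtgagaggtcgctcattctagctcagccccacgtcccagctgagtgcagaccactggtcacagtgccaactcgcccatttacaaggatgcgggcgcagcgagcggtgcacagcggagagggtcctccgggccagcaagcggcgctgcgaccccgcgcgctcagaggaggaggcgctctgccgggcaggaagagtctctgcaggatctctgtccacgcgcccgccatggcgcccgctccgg

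Over all 73 member promoters, the ETS motif was present in 32.9%, against 16% of the promoters of tested genes and 8.86% of all promoters in the collection. The YY1 motif was present in 16.4% of member promoters, 4.09% of those of tested genes and 2.75% of all. The NRF1 core was present in 11%, 4.94% and 2.71% of these same sets. The E-box was present in 9.59% of member promoters and in 9.77% of those of tested genes. By subunit, the ETS motif was in 13 of 46 39S and 11 of 27 28S promoters (28.3% and 40.7%). The NRF1 core was in 7 and 1 of them (15.2% and 3.7%). The YY1 motif was in 6 and 6 (13% and 22.2%), and the E-box in 6 and 1 (13% and 3.7%). Promoters and not genes were counted, and the overlapping promoters of *Mrpl2* share an E-box that was counted in each. These shares are descriptions of letters in a window, and no match is a site shown to be bound. A promoter without a match says only that these letters were not in the 300 bases read.

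The first question was whether the genes of both subunits differed between the diets. In IDA hearts, 74 of 76 members were higher and none was lower (edgeR quasi-likelihood test, Benjamini-Hochberg adjusted p below 0.05 over all tested genes). All 47 of the 39S genes and 27 of the 29 28S genes were called higher. Of all tested genes, 35% were called higher and 32.5% lower. The median log2 fold change, IDA against control, was 0.30 over the members and 0.02 over all tested genes. The change was small in each gene. The log2 fold changes of the members ran from -0.09 to 0.48, with an SD across members of 0.10, and the median corresponds to a level 1.23 times that of control. When edgeR and DESeq2 each had to give a p below 0.01, the rule of the study, 70 members were called higher (45 of 39S and 25 of 28S). Of all tested genes, 30.6% were called higher by this rule. The study applied it after leaving out 1 mouse of each group, and these calls are not those of the study. Its differing genes were fewer in all than the 4158 called higher here, and most of them were lower in IDA hearts. The reason for this gap was not tested.

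**Figure D1:**
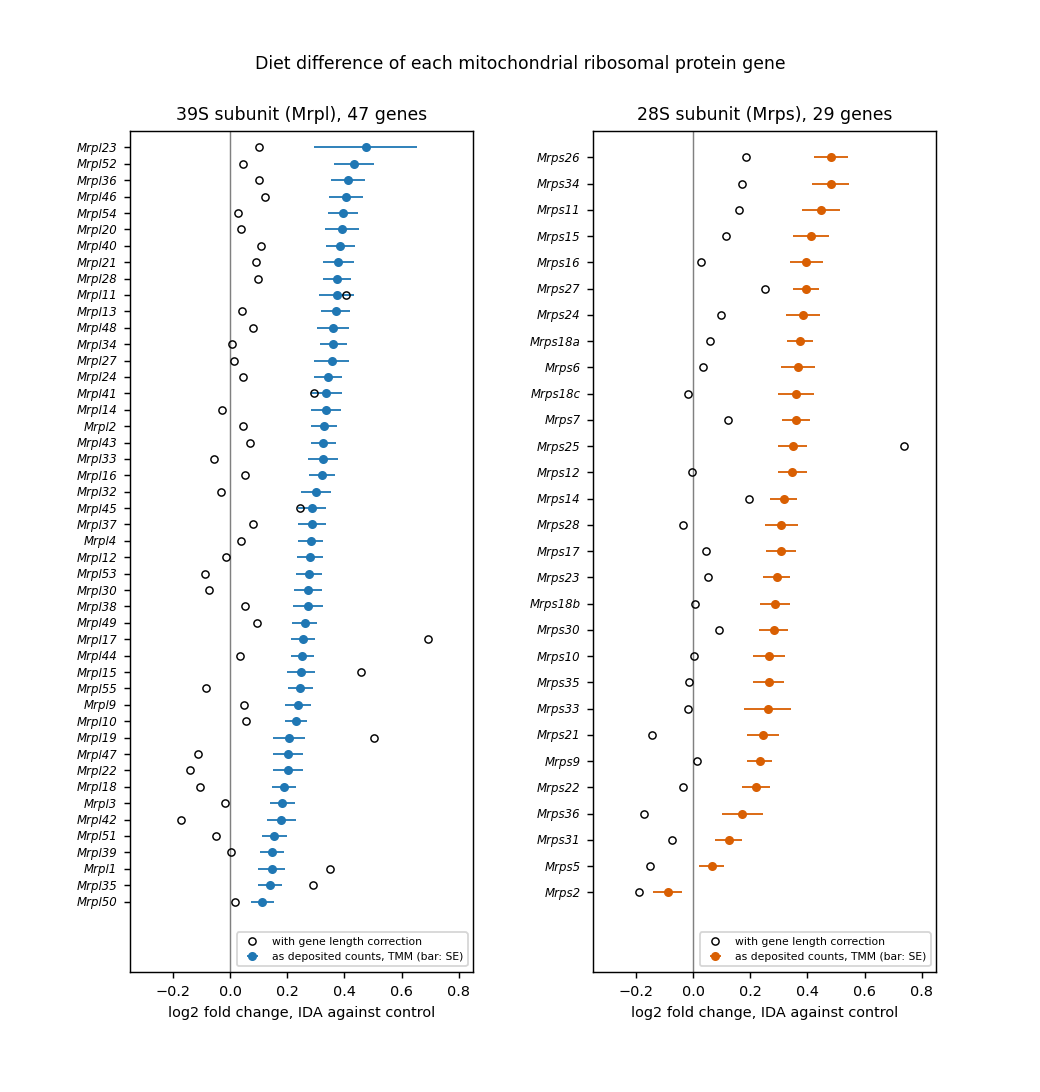
Log2 fold change (IDA against control, 10 mice each) of the 47 39S genes (left) and 29 28S genes (right), with the SE as a bar, and the same with a gene length correction as open circles. Of the filled points 75 of 76 lie above 0, from -0.09 for *Mrps2* to 0.48 for *Mrps26*, while the open circles scatter around a median of 0.04. The median over all tested genes with this correction is also 0.04.

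The mice themselves showed the same shift. For each mouse, the median over members of the log2 CPM minus the mean of that gene over all mice was -0.15 ± 0.10 in control and 0.15 ± 0.09 in IDA mice (SD, n = 10 each). The lowest and highest values were -0.27 and 0.015 in control and -0.0066 and 0.28 in IDA mice. The groups overlapped only through control mouse 1 and IDA mouse 5. The summed level of the members was 5555 ± 371 CPM in control and 6750 ± 411 CPM in IDA mice (SD, n = 10 each), and IDA mouse 5 was again the lowest of its group at 6109 CPM. In 65 members all 10 IDA mice lay above the mean of the control mice, in 8 members 9 mice did, and in 2 members 8 did. In 17 members (9 of 39S and 8 of 28S) every IDA mouse lay above every control mouse. That held for 4.97% of all tested genes.

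**Figure D2:**
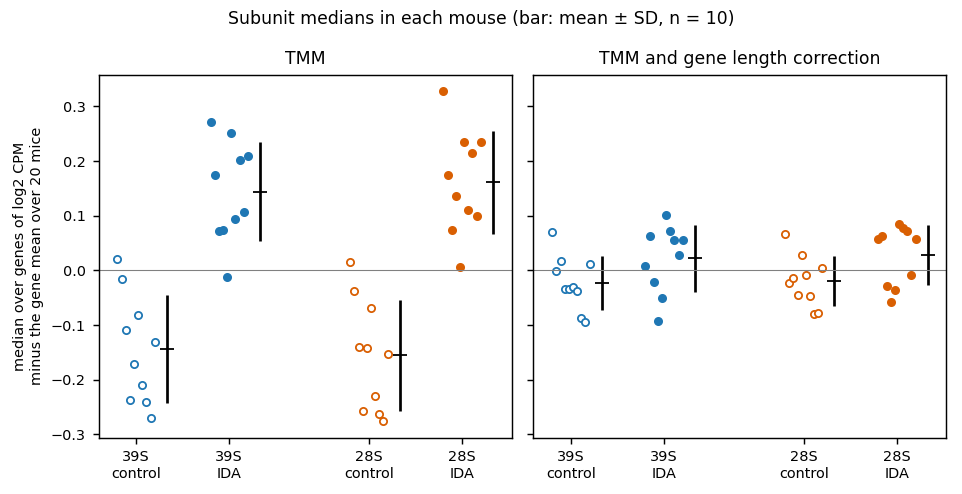
Median over the 39S genes (blue) and the 28S genes (orange) of the log2 CPM minus the gene's mean over the 20 mice, 1 point per mouse, open for control and filled for IDA, with the mean ± SD (n = 10) as a bar, with TMM normalization (left) and with a gene length correction added (right). The 39S mean runs from -0.14 in control to 0.14 in IDA and the 28S mean from -0.16 to 0.16 on the left, and on the right the groups overlap, with 39S means of -0.02 and 0.02.

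The medians of the subunits lay close together. The median log2 fold change was 0.29 for 39S and 0.31 for 28S, a difference of -0.02. In each mouse, the 39S median minus the 28S median was 0.011 ± 0.019 in control and -0.017 ± 0.026 in IDA mice (SD, n = 10 each), and the ranges overlapped. The 39S genes summed to 3698 ± 245 CPM in control and 4464 ± 266 CPM in IDA mice. The 28S genes summed to 1857 ± 128 CPM and 2286 ± 145 CPM (SD, n = 10 each). The ratio of these sums was 1.99 ± 0.02 in control and 1.95 ± 0.02 in IDA mice, with ranges of 1.95 to 2.01 and 1.91 to 1.98. The difference between subunits was not tested. Members of a subunit are not replicates of it. Symbols do not always follow the structure of the ribosome, in which *Mrps18a* and *Mrps30* belong to the large subunit and *Mrps36* is a subunit of the alpha-ketoglutarate dehydrogenase complex. Counted by structure, 49 large-subunit and 24 small-subunit genes were higher, and the difference of medians was -0.03.

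Within the 28S subunit, the largest changes were in *Mrps26* and *Mrps34*, both found in mitochondrial but not bacterial ribosomes, and in *Mrps11*, the counterpart of a bacterial protein of the platform. *Mrps26* was at 46.5, 53.8 and 60.7 CPM (lowest, median and highest) in control and at 65.4, 73.3 and 89.98 CPM in IDA mice. The groups did not overlap. The log2 fold change was 0.48 ± 0.06 (SE), with an adjusted p of 6.00e-07. *Mrps34* was at 56.3, 67.1 and 75.7 CPM in control and 74.97, 92.2 and 104.7 CPM in IDA mice, and only the lowest IDA mouse lay below the highest control mouse. *Mrps34* had a log2 fold change of 0.48 ± 0.06 (SE, adjusted p = 1.26e-06). *Mrps11* was at 35.3, 39.5 and 41.9 CPM in control and 44.1, 51.2 and 65.2 CPM in IDA mice, without overlap, with a log2 fold change of 0.45 ± 0.07 (SE, adjusted p = 4.08e-06).

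The 28S subunit also held the members at the other end. *Mrps2*, the counterpart of a bacterial protein of the small subunit, was at 85.5, 98.3 and 107.7 CPM in control and 78.6, 92.8 and 101.5 CPM in IDA mice. The groups overlapped over most of their range and only 1 of 10 IDA mice lay above the control mean. The log2 fold change of -0.09 ± 0.05 (SE) had an adjusted p of 0.13. Without control mouse 8 it was -0.12, with an adjusted p of 0.035. *Mrps5*, whose bacterial counterpart lies at the entry of the messenger RNA, was at 53.6, 57.8 and 59.6 CPM in control and 51.0, 60.5 and 64.3 CPM in IDA mice. Its log2 fold change was 0.07 ± 0.04 (SE, adjusted p = 0.18), and without IDA mouse 4, the lowest of that group, it was 0.09 (adjusted p = 0.050, just under the threshold). These were the members that did not pass the test. *Mrps31*, with a log2 fold change of 0.12 ± 0.05 (SE, adjusted p = 0.024), was the smallest called change of the subunit, and it was not called without control mouse 8 (0.10, adjusted p = 0.070) or without IDA mouse 1 (0.10, adjusted p = 0.060).

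**Figure D3:**
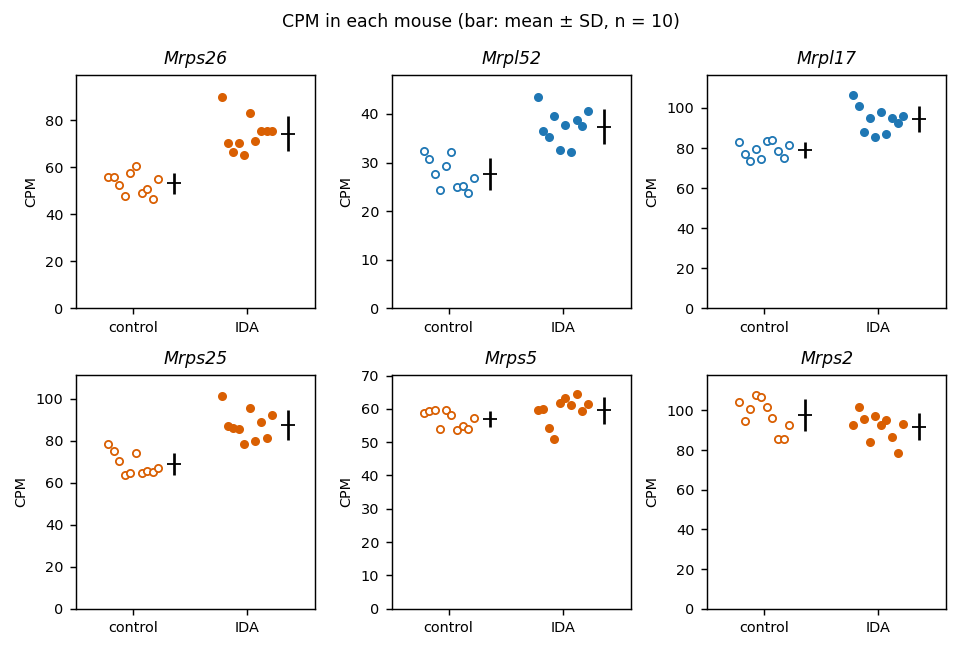
CPM in each of 10 control (open) and 10 IDA (filled) mice for *Mrps26*, *Mrpl52*, *Mrpl17*, *Mrps25*, *Mrps5* and *Mrps2*, on axes from 0, with the mean ± SD as a bar. All IDA mice lie above all control mice for *Mrps26*, *Mrpl17* and *Mrps25*, whereas for *Mrps2* the IDA median of 92.8 CPM lies below the control median of 98.3 CPM.

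In the 39S subunit, *Mrpl23*, *Mrpl52* and *Mrpl36* had the largest log2 fold changes. *Mrpl52*, found in mitochondrial but not bacterial ribosomes, was at 23.8, 27.2 and 32.4 CPM in control and 32.1, 37.6 and 43.5 CPM in IDA mice, and the groups touched at their edges. The change in *Mrpl52* was 0.43 ± 0.07 on the log2 scale (SE, adjusted p = 9.53e-06). *Mrpl36*, the counterpart of a small bacterial protein of the large subunit, was at 50.4, 55.4 and 63.4 CPM in control and 63.2, 74.7 and 85.2 CPM in IDA mice, and again the groups touched at their edges. Its log2 fold change was 0.41 ± 0.06 (SE, adjusted p = 3.39e-06). *Mrpl23*, whose bacterial counterpart lies at the end of the exit tunnel, stood on few reads. It had 18.2 read pairs per mouse in control on average, and 1.31, 2.41 and 3.28 CPM in control against 1.71, 2.97 and 5.03 CPM in IDA mice. The groups overlapped widely, and its log2 fold change of 0.47 ± 0.18 (SE, adjusted p = 0.023) was 0.37 without IDA mouse 1 (adjusted p = 0.066).

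The smallest 39S changes were in *Mrpl50*, *Mrpl35* and *Mrpl1*. *Mrpl50*, found in mitochondrial but not bacterial ribosomes, was at 118.0, 131.0 and 143.8 CPM in control and 120.3, 141.1 and 151.0 CPM in IDA mice, so that most of the ranges overlapped. Its log2 fold change was 0.11 ± 0.04 (SE, adjusted p = 0.018), and 0.09 without control mouse 8 (adjusted p = 0.056). *Mrpl35*, the counterpart of a bacterial protein, was at 80.6, 90.6 and 97.9 CPM in control and 90.1, 99.8 and 110.1 CPM in IDA mice, with a log2 fold change of 0.14 ± 0.04 (SE, adjusted p = 0.0048). *Mrpl1*, whose bacterial counterpart forms the stalk through which the spent transfer RNA leaves, was at 69.8, 79.1 and 90.3 CPM in control and 78.4, 87.6 and 93.5 CPM in IDA mice, with a log2 fold change of 0.15 ± 0.05 (SE, adjusted p = 0.0093).

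Members with a known place or known role were next read one by one. *Mrpl12*, part of the stalk that recruits the elongation factors, rose from 129.5 ± 9.8 CPM to 157.4 ± 9.98 CPM (SD, n = 10 each; log2 fold change 0.28 ± 0.05 SE, adjusted p = 1.29e-05). *Mrpl44*, a protein with an RNase III fold whose loss in patients causes a cardiomyopathy of infancy, was at 87.7 to 106.1 CPM in control and 109.8 to 125.4 CPM in IDA mice, without overlap (log2 fold change 0.25 ± 0.04 SE, adjusted p = 8.50e-06). *Mrpl45*, which anchors the ribosome to the inner membrane near the tunnel exit, rose from 126.0 ± 10.3 CPM to 153.6 ± 11.2 CPM (log2 fold change 0.29 ± 0.05 SE, adjusted p = 2.50e-05). *Mrps7*, of the head of the small subunit, rose from 111.9 ± 8.4 CPM to 143.6 ± 10.4 CPM (log2 fold change 0.36 ± 0.05 SE, adjusted p = 1.32e-06). *Mrps12*, at the decoding centre, rose from 52.1 ± 4.0 CPM to 66.2 ± 5.0 CPM (log2 fold change 0.35 ± 0.05 SE, adjusted p = 3.89e-06). With the trend of each mouse on exonic length taken out, *Mrpl45* (0.24, adjusted p = 1.66e-04) and *Mrps7* (0.12, adjusted p = 0.0043) were still called higher. *Mrpl44* (0.034, adjusted p = 0.39), *Mrpl12* (-0.015, adjusted p = 0.75) and *Mrps12* (-0.0043, adjusted p = 0.92) were then not called. With GC content corrected as well, *Mrpl45* (0.25, adjusted p = 1.71e-04) was still higher. *Mrps7* (0.036, adjusted p = 0.39) and *Mrpl44* (0.015, adjusted p = 0.73) were not called in that fit. *Mrpl12* (-0.12, adjusted p = 0.022) and *Mrps12* (-0.10, adjusted p = 0.014) were called lower in it.

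The bacterial protein S18 has 3 mammalian copies, and all were higher in IDA mice. *Mrps18a*, which lies in the large subunit, had a log2 fold change of 0.37 ± 0.05, *Mrps18c* of 0.36 ± 0.06 and *Mrps18b* of 0.29 ± 0.05 (SE; adjusted p = 5.25e-07, 2.36e-05 and 6.56e-05). *Mrps18a* and *Mrps18b* did not overlap between the groups. With the trend on exonic length taken out, none of these copies was called. *Mrps18a* was then at 0.061 (adjusted p = 0.11), *Mrps18c* at -0.017 (adjusted p = 0.75) and *Mrps18b* at 0.0071 (adjusted p = 0.91). *Mrps30*, also of the large subunit, rose by a log2 fold change of 0.28 ± 0.05 (SE, adjusted p = 3.98e-05). With the trend on exonic length taken out, *Mrps30* was at 0.091 (adjusted p = 0.078) and not called. With GC content corrected as well, it was at 0.32 (adjusted p = 2.89e-05). *Mrps36*, which is not a ribosomal protein by structure, was at 12.6, 13.6 and 17.3 CPM in control and 13.8, 15.7 and 17.8 CPM in IDA mice. Its log2 fold change of 0.17 ± 0.07 (SE, adjusted p = 0.037) lost its call in 10 of the 20 fits that each left out a mouse (adjusted p up to 0.082, without IDA mouse 1).

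Only part of the members were assigned to a place in the ribosome, so the lists by place are not complete. Every member assigned to the central protuberance (5 genes, median log2 fold change 0.36), the region of peptidyl transfer (5 genes, 0.32) or the factor-binding stalk (3 genes, 0.28) was called higher. The same held for the exit tunnel (8 genes, 0.25) and the head of the small subunit (7 genes, 0.26). Of the 3 on the path of the messenger RNA (0.35), 2 were called higher and *Mrps5* was not. By origin, 44 of the 46 members with a bacterial counterpart were higher, with a median of 0.31. All 29 members counted as specific to mitochondrial ribosomes were higher, with a median of 0.29. *Mrps18a* and *Mrps18b* were counted there although they are copies of S18, so the split by origin is approximate. In the same fit, 35% of all tested genes were called higher. With the trend of each mouse on exonic length taken out, 2 members of the central protuberance were higher and 1 lower (median 0.081), none of the 5 of the peptidyl transfer region was called (0.040), 1 of the stalk was higher (0.056), 2 of the exit tunnel were higher and 2 lower (0.039), 2 of the head were higher (0.0025), and 1 on the messenger RNA path was higher and 1 lower (-0.0043). No difference between places or origins was tested. The bases of the assignment are general knowledge of the structures and not these data.

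Levels differed between members far more than between diets. Per kilobase of exon, the members ran from 4.08 to 137 CPM per kb in control, with a median of 61.4 (39S 67.2 and 28S 53.7). The highest were *Mrpl42* at 137 ± 12.4, *Mrpl12* at 136 ± 10.3, *Mrpl30* at 132 ± 11.1 and *Mrps23* at 124 ± 10.95 CPM per kb (SD, n = 10), and neighbours in this order differed by less than their spread. Next in the 28S subunit were *Mrps21* at 104 ± 9.15 and *Mrps16* at 95.6 ± 9.34 CPM per kb. The lowest were *Mrpl23* at 4.08 ± 1.07 and *Mrps33* at 9.22 ± 1.07 CPM per kb, and these were also the only members with fewer than 100 read pairs per mouse on average in control. In IDA mice the members ran from 5.65 to 166 CPM per kb, with a median of 77.5.

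**Figure D4:**
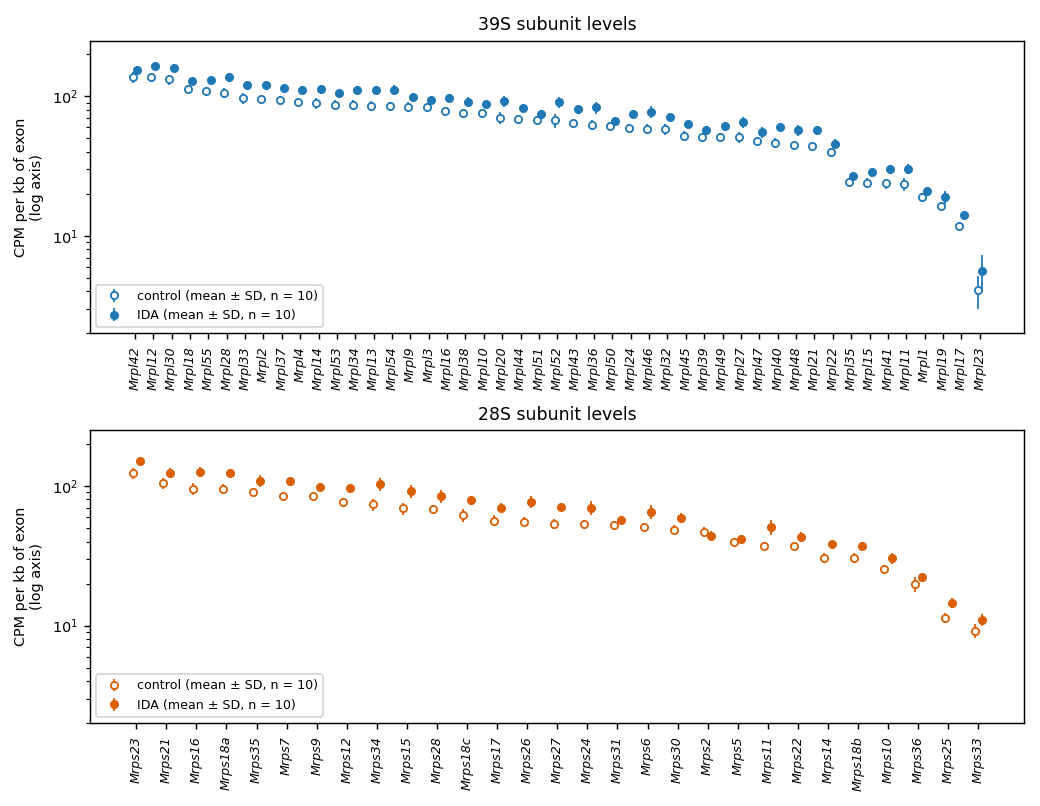
Levels of the 39S genes (top) and 28S genes (bottom) in CPM per kb of exon on a log axis, ordered by the control level, open for control and filled for IDA, with the SD over 10 mice as a bar. Levels run from 4.08 (*Mrpl23*) to 137 CPM per kb (*Mrpl42*) in control, and the filled point lies above the open one for each gene except *Mrps2*.

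The fold changes of all genes in these libraries fell with exonic length, so the members were compared with genes of like length. Over all tested genes, the log2 fold change was -0.26 per doubling of exonic length (Spearman's rho -0.63, n = 13590 genes). Over the members it was -0.04 per doubling (rho -0.42, n = 76 genes; 39S -0.48, n = 47; 28S -0.35, n = 29). Genes are not independent replicates, and all of these points share the same libraries. The slope of each mouse's deviation on length was positive in every control mouse, from 0.02 to 0.20, and negative in every IDA mouse, from -0.25 to -0.03. Among genes under 1000 bp, 82% of all those tested were called higher and 32 of 32 members were, with medians of 0.34 for all genes and 0.35 for the members. From 1000 to 2000 bp, 63.5% of all tested genes and 32 of 33 members were called higher, with medians of 0.26 and 0.28. Over 2000 bp, 21.7% of all tested genes and 10 of 11 members were called higher, with medians of -0.12 and 0.25.

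**Figure D5:**
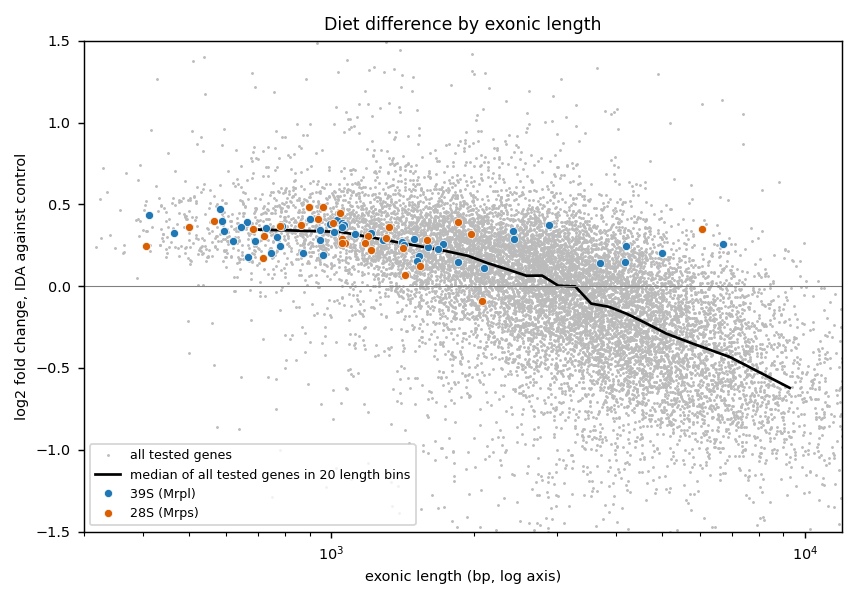
Log2 fold change (IDA against control) by exonic length in bp (log axis) for all tested genes (grey), their median in 20 bins of length (line), and the 39S (blue) and 28S (orange) genes, with genes outside the axes not drawn. The line falls with length, at -0.26 per doubling over all genes, whereas the members stay between -0.09 and 0.48 over their whole range from 407 to 6712 bp.

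The 11 members over 2000 bp had the median farthest from that of genes of their own length. They were *Mrpl1*, *Mrpl11*, *Mrpl15*, *Mrpl17*, *Mrpl19*, *Mrpl35*, *Mrpl41*, *Mrpl45*, *Mrpl50*, *Mrps2* and *Mrps25*. Their exonic lengths ran from 2079 to 6712 bp. Their coding lengths ran only from 405 to 1008 bp, with a median of 576 bp, against 588 bp in the 65 shorter members, so that the rest of their exonic length is non-coding in the annotation. Per kilobase of exon their median control level was 23.8 CPM per kb, against 68.7 in the shorter members. Per kilobase of coding sequence it was 134 CPM per kb, against 105.

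*Mrpl17*, with 6712 bp the longest member, and *Mrps25*, with 6065 bp, carried this difference furthest. *Mrpl17* (chr7:105803782-105811087, minus strand, mm10) was at 73.7, 79.2 and 84.1 CPM in control and 85.6, 95.1 and 106.4 CPM in IDA mice. The groups did not overlap, and its log2 fold change was 0.26 ± 0.04 (SE, adjusted p = 1.38e-05). *Mrps25* (chr6:92169523-92184023, minus strand, mm10) was at 63.6, 66.4 and 78.4 CPM in control and 78.7, 86.8 and 101.4 CPM in IDA mice, again without overlap, and its log2 fold change was 0.35 ± 0.05 (SE, adjusted p = 3.86e-06). *Mrpl19*, with 5000 bp, was at 74.6, 83.0 and 88.9 CPM in control and 82.0, 95.2 and 110.6 CPM in IDA mice. Its groups overlapped, and the lowest IDA mouse lay below the control median. *Mrpl19* had a log2 fold change of 0.21 ± 0.06 (SE, adjusted p = 0.0028).

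When the trend on exonic length was taken out of each mouse, 21 members were higher (13 of 39S and 8 of 28S) and 9 were lower, with a median log2 fold change of 0.04. Under this correction 31.5% of all tested genes were called higher and 23.5% lower, and their median was also 0.04. Of the 11 long members 9 were higher and 1 was lower. Of the 65 shorter members 12 were higher and 8 were lower. The largest corrected log2 fold changes were those of *Mrps25* (0.74 ± 0.09 SE, adjusted p = 9.88e-07), *Mrpl17* (0.69 ± 0.07, adjusted p = 6.22e-07) and *Mrpl19* (0.50 ± 0.08, adjusted p = 1.65e-05). The lowest were those of *Mrps2* (-0.19 ± 0.05, adjusted p = 0.0039), *Mrps36* (-0.17 ± 0.07, adjusted p = 0.044) and *Mrpl42* (-0.17 ± 0.04, adjusted p = 0.0012). *Mrps5* also became a lower call, at -0.15 ± 0.05 (SE, adjusted p = 0.0066). *Mrps26* (0.19), *Mrps34* (0.17) and *Mrps11* (0.16) were still called higher with this correction. With GC content corrected as well, 26 members were higher and 11 lower, against 27.5% and 19.1% of all tested genes. In that fit *Mrps26* was at 0.22, while *Mrps34* at 0.011 (adjusted p = 0.81) and *Mrps11* at 0.076 (adjusted p = 0.17) were not called. With a correction on coding length in place of exonic length, 50 members were higher and 2 were lower, with a median of 0.13, against 35.7% and 27.3% of all tested genes and a median of 0.05. Of the 11 long members 5 were then higher and 2 were lower, against 2924 and 3334 of the 9658 tested genes over 2000 bp. *Mrps25* was at 0.16 (adjusted p = 8.57e-04) in that fit, and *Mrpl17* at 0.064 (adjusted p = 0.14) and *Mrpl19* at 0.11 (adjusted p = 0.079) were not called. The correction removes any trend on length, of whatever origin, and the origin of the trend was not tested.

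Some members share exonic bases with another gene, and the counts were made without strand. Of the 76 members, 9 overlapped exons of another gene, 7 of them by at least 10% of their own exonic length. *Mrps25* overlapped *Nr2c2* on the opposite strand by 58.3% of its length, *Mrpl41* overlapped *Wdr85* by 41.4%, *Mrpl24* overlapped *Rrnad1* by 37.4% and *Mrpl19* overlapped *Gcfc2* by 22.9%, all on the opposite strand. Reads from these bases cannot be told apart by strand, and the values of these members are uncertain to that extent. *Mrps6* overlapped *Slc5a3* on the same strand by 18.6%. Without the 7 members, 67 of 69 were higher, with a median log2 fold change of 0.29. Of the 8 long members left, 7 were higher, with a median of 0.20.

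The genes that work with the mitochondrial ribosome were set beside the shares of 35% higher and 32.5% lower among all tested genes. A list of 8 genes held mitochondrial ribosomal proteins that carry other names, and *Oxa1l*, which is not a ribosomal protein. Of these 8 genes, 7 were higher, with a median log2 fold change of 0.34. *Chchd1* (0.45 ± 0.05 SE) and *Gadd45gip1* (0.43 ± 0.06) were the highest, *Oxa1l*, the inner membrane insertase that docks at the tunnel exit, was at 0.22 ± 0.05, and *Ptcd3* at -0.004 ± 0.041 was not called. Of 25 genes for assembly of the ribosome, including RNA modification and the mitochondrial RNA polymerase, 17 were higher and 2 lower, with a median of 0.27. The helicase *Ddx28* (0.48 ± 0.07 SE) and the rRNA methyltransferase *Ftsj2* (0.53 ± 0.07) were the highest, and the GTPase *Gtpbp10* (-0.38 ± 0.08) and the rRNA methyltransferase *Mettl15* (-0.34 ± 0.09) were lower. Of 16 translation factors and related proteins, 8 were higher and 4 lower, with a median of 0.07. These counts lay nearer to the shares over all tested genes than those of the members did. The genes of this list are also longer, with a median exonic length of 2424 bp against 1053 bp in the members. The elongation factor *Tsfm* (0.39 ± 0.05 SE) and *Slirp* (0.36 ± 0.06) were the highest. The elongation factor *Gfm1* (-0.18 ± 0.05), the initiation factor *Mtif2* (-0.15 ± 0.04), the release factor *Mtrf1l* (-0.14 ± 0.05) and the RNA-binding protein *Lrpprc* (-0.16 ± 0.05), the partner of *Slirp*, were lower. With the length correction, 4 of the first list were higher and none lower, and 14 of the second were higher and 4 lower. Of the last, 6 were higher and 5 lower, beside 31.5% and 23.5% of all tested genes. The corrected medians of these lists were 0.14, 0.18 and 0.08 in turn, against 0.04 over the members. *Lrpprc* was then at 0.095 (adjusted p = 0.11) and *Slirp* at -0.022 (adjusted p = 0.72), so neither was called and both signs turned.

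The most like family, the 82 tested proteins of the cytosolic ribosome, was set beside the members. Of these, 74 were higher and none lower, with a median log2 fold change of 0.30, beside 82% called higher and a median of 0.34 among all tested genes under 1000 bp. In only 1 of the 82 did every IDA mouse lie above every control mouse, against 17 of the 76 members and 13.3% of all tested genes under 1000 bp. With the length correction, 7 of the cytosolic genes were higher and 14 lower, with a median of -0.02. The cytosolic genes are short, with a median exonic length of 707 bp against 1053 bp in the members. Many of them have near-identical copies in the genome, so their counts are uncertain, and the difference between the families was not tested.

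The column names of the counts carry library numbers that fall into separate runs, a lower run with 5 control and 7 IDA mice and a higher run with 5 control and 3 IDA mice. Within the lower run, 69 members and 30.2% of all tested genes were called higher. The members had a median log2 fold change of 0.34, and 75 were positive. Within the higher run, 53 members and 19.4% of all tested genes were called higher. The members had a median of 0.28, and 74 were positive. No member was called lower in either. Library size moved with the diet. With log2 library size as a covariate, 64 members (40 of 39S and 24 of 28S) and 29.1% of all tested genes were called higher, and the median of the members was 0.22.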

How the data were processed

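RNA-seq was done on whole hearts of 10 control and 10 IDA mice. The authors used STAR for alignment (mm10), samtools to drop PCR duplicates and featureCounts (1.4.5-p1), unstranded, to assign read pairs to the exons of each gene name. They deposited the raw counts of 23420 genes beside each gene's exonic length. Diets were taken from the labels. The study left out 1 mouse of each group for contamination of the sample. The sources used here do not name them, so all 20 were kept and each group of 10 may hold such a library. Counts were tested in R 4.3.3 with edgeR 4.0.16 (TMM, quasi-likelihood test) in 13590 genes, after leaving out 9830 below 1 CPM in at least 10 mice, with adjustment over all of them. DESeq2 1.42.0 (Wald test) was an alternative. Log2 CPM used a prior count of 2. SE was the absolute log2 fold change divided by the square root of F. For the length correction, deviations from the gene mean were smoothed on log2 exonic length in every mouse (loess, span 0.5, degree 1), and the curve was given to edgeR as offsets. Scripts were tested on simulated data.

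The members and lists were chosen with earlier results of these data known. The 30 members named by rule were the 3 largest and 3 smallest changes and the 3 highest levels per kb in each subunit, those not called, the 3 highest and 3 lowest length-corrected changes, and 10 chosen by role. Other members are named after their values were seen. In the other lists, the 2 largest and 2 smallest changes and all lower calls were named by rule. Kinases and a binding protein whose symbols begin like cytosolic ribosomal proteins were left out of that family. GC content and coding lengths came from GENCODE M21 and were found for 99.3% and 96.2% of tested genes.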

Additional observations from a re-analysis of the deposited data

Results flagged for a closer look

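In *Mrpl50*, IDA mouse 4 stood apart from its group at 120.35 CPM, with the nearest IDA mouse at 136.07 CPM. The gap was 0.514 of the range of the 10 IDA mice, above Dixon's 95% critical value. It was the only such value among 68 groups examined, and chance alone flags about 1 in 20 groups. The same mouse was also the lowest IDA mouse for *Mrps5*, at 51.0 CPM.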

How the results depend on the processing

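Corrections for gene length moved the results most. With exonic length, 21 members were higher (13 of 39S, 8 of 28S) and 9 lower, the median was 0.042, and the 39S median minus the 28S median was 0.017. With exonic length and GC content these values were 26 (17 and 9), 11, 0.055 and 0.028. The medians over all tested genes were 0.038 and 0.034 in turn. With coding length, chosen after seeing the data, 2 members were lower, 29 39S genes were higher and the median was 0.13. Log2 fold changes were negative in 24, 22 and 8 of the 76 members under these corrections. Of the 30 members named by rule, those that changed sign with a call before or after were, with exonic length, *Mrpl12* (-0.015), *Mrpl30* (-0.072), *Mrpl42* (-0.17), *Mrps12* (-0.0043), *Mrps18c* (-0.017), *Mrps21* (-0.14), *Mrps31* (-0.075), *Mrps36* (-0.17) and *Mrps5* (-0.15). With GC content added, they were *Mrpl12* (-0.12), *Mrpl42* (-0.041), *Mrps12* (-0.10), *Mrps18a* (-0.023), *Mrps18b* (-0.030), *Mrps21* (-0.17) and *Mrps36* (-0.10). With coding length, they were *Mrpl35* (-0.037), *Mrpl42* (-0.042), *Mrpl50* (-0.090), *Mrps21* (-0.050) and *Mrps36* (-0.10). The cause was not tested.

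With DESeq2, RLE size factors, library size alone, no filter, the covariates and either run of library numbers, between 53 and 75 members were higher and none lower. The 3 fits on library numbers were chosen after seeing the data. Leaving out each mouse gave 71 to 75 higher (39S 46 to 47, 28S 25 to 28), 0 to 1 lower (*Mrps2*, without control mouse 8), medians of 0.27 to 0.32 and subunit differences of -0.034 to -0.011.

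The labels number the mice 1 to 10 in both groups. Deviations of same-numbered mice correlated between -0.28 and 0.26, above 0.1 in 3 of 10 pairs. Mice with different numbers were not compared, so these values cannot tell whether the numbers pair the mice. With the replicate number as a block, 74 members (47 and 27) were higher and 0 lower, with a median of 0.30 and a subunit difference of -0.021.

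Depth limits *Mrpl23* and *Mrps33* most, each under 100 read pairs per mouse in control.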
